A study of Drosophila melanogaster with 17 samples.

Results

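The genes described here are the insulin-like peptides Ilp2, Ilp3, Ilp5 and Ilp6, the receptor InR, the receptor substrate chico, the transcription factor foxo, the secreted binding protein ImpL2 and the insulin-responsive genes Thor and tobi. They were chosen by name, and 9 of the 10 were matched among the 13479 genes of the table; InR is not analysed here. Their levels come from glial TRAP-seq, in which a GFP-tagged ribosomal protein is expressed in glia and the ribosomes carrying it are pulled out of homogenized heads together with their mRNAs. All flies, sham and injured, carried the pan-glial driver repo-GAL4 and UAS-GFP::RpL10A. The TBI flies had received dCHI, in which a solenoid pin gives repeated closed blows (5 in this experiment) to the head of a restrained, unanesthetized fly, and the sham-treated flies had not. Heads of many flies were pooled for each library and collected at lights-on 1, 3 or 7 days after injury, which the labels number 3, 6 and 10. Each group had 3 libraries, except TBI on day 7 with 2. The labels call the flies female and the methods call them young adult males. Yp1, a yolk protein gene of the female fat body, lay between 3531 and 15984 TPM in all 17 libraries.

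In Drosophila, insulin-like peptides bind a single receptor, and the signal passes through chico, PI3 kinase and Akt to hold the transcription factor foxo out of the nucleus. Ilp2, Ilp3 and Ilp5 are peptides of the insulin-producing cells, a cluster of neurosecretory neurons in the brain. Ilp6 is made mainly by the fat body and by glia, and glial Ilp6 is known for reactivating neural stem cells in the larva. ImpL2 is a secreted protein that binds insulin-like peptides and dampens signalling. Thor, the fly 4E-BP, represses translation and is a transcriptional target of foxo, and tobi is a glycosidase gene named for its response to insulin from the brain.

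The libraries listed between 9880 and 11350 genes above 0. The values are TPM, transcript abundances scaled by length and library size, which keep no read depth, so replicates are the only measure of precision. Glial markers were found in all libraries: the 8 markers summed to between 2001 and 5959 TPM, and all 8 were detected. Transcripts of other cells were there as well, with 597 to 1085 TPM for 6 neuronal genes and 25466 to 58177 TPM for 7 photoreceptor genes. Several marker sums moved with the groups. On day 1 the glial sum was 4074 to 5959 TPM in sham libraries and 3019 to 4209 TPM after TBI, and 2 of the 8 glial markers were called lower. A sum of 9 midgut digestive genes reached 486 to 914 TPM in all 3 TBI libraries of day 1, 748 TPM in sham replicate 2 of day 3 and 806 TPM in TBI replicate 1 of day 7, and at most 6.74 TPM in the other 12 libraries. In such pooled material, fewer cells of a type and less RNA per cell cannot be told apart.

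**Figure D1:**
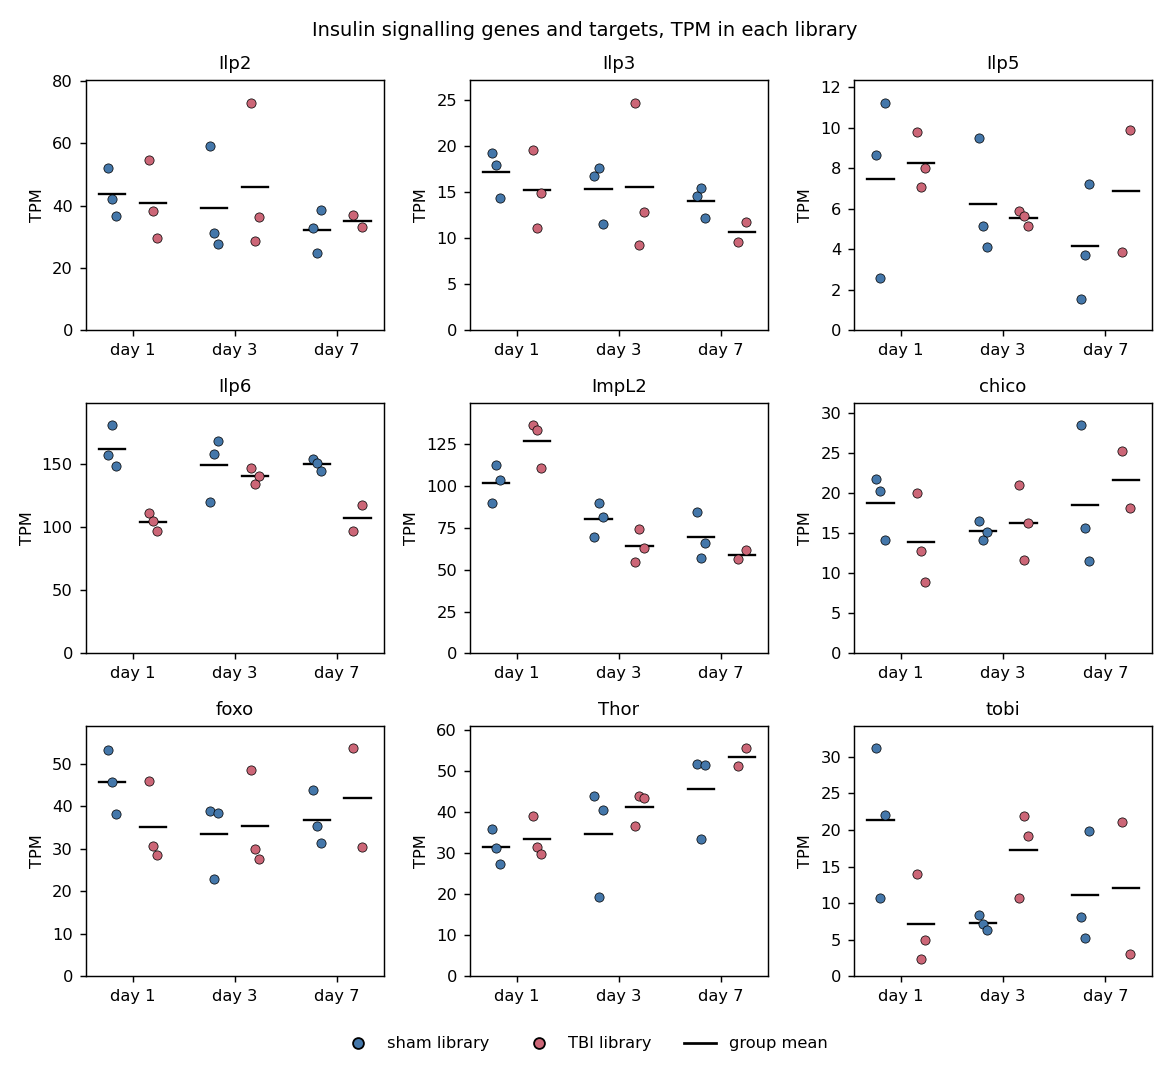
TPM (y axis, from 0) of the 9 genes in each sham (blue) and TBI (red) library on days 1, 3 and 7 (x axis), with the group mean as a line. Ilp6 lies between 97.3 and 111 TPM in the TBI libraries of day 1, below the 149 to 181 TPM of the sham libraries, and tobi spreads over several-fold within groups.

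In the 9 sham libraries, Ilp6 had the highest level of the 9 genes, at 154 ± 16.7 TPM (mean ± SD, n = 9), which is above 94.6% of the 11939 genes detected in them. ImpL2 followed at 84.0 ± 17.8 TPM and foxo at 38.6 ± 8.68 TPM, and these 3 did not overlap. TPM is scaled per length, but the pulled-down RNA was amplified before sequencing. Whether all genes were recovered alike was not tested, so the order is that of the listed values. Ilp2 (38.4 ± 11.3 TPM) and Thor (37.2 ± 10.8 TPM) could not be separated from foxo. They were followed by chico (17.5 ± 5.17 TPM), Ilp3 (15.6 ± 2.64 TPM), tobi (13.2 ± 8.99 TPM) and Ilp5 (5.96 ± 3.33 TPM), whose ranges all overlapped those of their neighbours in this order. Ilp6 was also the steadiest of them, with a coefficient of variation of 10.9%, against 67.9% for tobi.

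Ilp6 was lower 1 day after TBI. The gene lies on X, 2331493 to 2334658 on the minus strand (release 6 annotation), inside an intron of Raf, which is on the opposite strand. On day 1 it had 157, 181 and 149 TPM in the sham libraries and 111, 105 and 97.3 TPM in the TBI libraries. The groups did not overlap, which on that day was so for 16.1% of all genes, and for 5.95% with TBI lower. Its log2 fold change was −0.63 (SE 0.0894, limma, adjusted p = 0.0818), a level 0.648 times that of sham. A gene counts as called here when its log2 fold change lies at or beyond ±0.6 and its p, adjusted over all genes tested, does not exceed 0.1, so Ilp6 passed by a small margin.

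The call for Ilp6 on day 1 did not hold without any one of the 3 replicates: the log2 fold change then was −0.69, −0.55 or −0.64 without replicate 1, 2 or 3, with adjusted p from 0.166 to 0.323. Of the 8 glial markers, 6 had p under 0.05 before adjustment on that day, all with lower levels after TBI, and alrm and wrapper were called. Gli and moody, genes of the blood-brain barrier glia, had log2 fold changes of 0.23 and −0.03. Relative to alrm, an astrocyte gene, Ilp6 was 0.267, 0.310 and 0.370 in sham and 0.316, 0.378 and 0.401 in TBI libraries, so the ratio was not lower after TBI. Relative to the pan-glial gene repo, it was 1.91, 2.73 and 3.00 in sham and 1.80, 2.39 and 3.13 in TBI. Relative to moody it was lower after TBI without overlap, at 1.51, 1.73 and 1.55 in sham and 0.879, 1.14 and 1.15 in TBI, and relative to Gli as well, at 8.52, 7.94 and 9.03 in sham and 3.87, 5.04 and 5.07 in TBI. The ratio to the other 6 markers overlapped between the groups. Whether the lower glial signal has a part in the change of Ilp6 was not tested beyond these ratios. On day 1 the fat body and yolk markers summed to 13189 to 22157 TPM in sham and 5491 to 12546 TPM in TBI. The part of fat body RNA in the Ilp6 values was not tested.

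On day 3, Ilp6 was at 120.0, 158 and 169 TPM in sham and 147, 134 and 141 TPM in TBI libraries. The groups overlapped and the log2 fold change was −0.07 (interval −0.47 to 0.34). On day 7, the sham libraries had 154, 151 and 145 TPM and the 2 TBI libraries 97.1 and 117 TPM, again without overlap, as for 17.5% of all genes and, with TBI lower, for 2.41%. In limma the log2 fold change of −0.48 (SE 0.158) gave an adjusted p of 0.717, and it was under 0.05 before adjustment. On day 7 most genes were higher after TBI (median 0.23 over all genes tested, and 0.29 over those that averaged 1 TPM or more), and with upper-quartile scaling, which removes this shift, Ilp6 had a log2 fold change of −0.79 (adjusted p = 0.733). Without TBI replicate 1, the library with the midgut transcripts, the value was −0.35. The sum of the 8 glial markers was also lower after TBI on both days. On day 3 it was 3490 to 4119 TPM in sham and 2907 to 3060 TPM in TBI libraries. On day 7 it was 3205 to 4463 TPM in sham and 2001 to 2587 TPM in TBI libraries. The ratio of Ilp6 to 7 of the 8 markers overlapped between the groups of day 7, and that to Gs2 was higher after TBI. The part of the glial signal in the Ilp6 values was not tested.

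When 1 effect of TBI was fitted to all 17 libraries with the day as a factor, Ilp6 had a log2 fold change of −0.39 (SE 0.0946, limma, adjusted p = 0.0977). It passed the p threshold, but the change was under 0.6, so it was not called. Of 12665 genes, 0.679% were called. Among the 8 glial markers, 7 had lower estimates in this fit, and wrapper was called. The difference between the effects of day 3 and day 1 was 0.56 for Ilp6 (limma interaction, adjusted p = 0.309), so that the days were not shown to differ. For day 7 against day 1 it was 0.14 (adjusted p = 0.814), where 0.0400% of 12493 genes were called.

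Ilp2, Ilp3 and Ilp5, the peptides of the insulin-producing cells, were not called on any day. Ilp2 and Ilp3 are neighbours on 3L, at 9799698 to 9800440 and 9801298 to 9802120, and both lie in introns of CG32052. Ilp5 is at 9823349 to 9823897 on the same arm, in an intron of CG43897. On day 1, Ilp2 was at 52.3, 42.1 and 36.7 TPM in sham and 54.8, 38.2 and 29.6 TPM in TBI libraries. The groups overlapped fully, and the log2 fold change of −0.12 had an interval of −0.42 to 0.17. On day 3, Ilp2 was at 59.3, 31.3 and 27.8 TPM in sham and 73.1, 28.7 and 36.4 TPM in TBI. Replicate 1 was the highest in both groups. On day 7, the values were 32.9, 24.8 and 38.6 TPM in sham and 36.9 and 33.1 TPM in TBI, a log2 fold change of 0.14 that was −0.16 with upper-quartile scaling.

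Ilp3 was at 19.3, 18.0 and 14.4 TPM in sham and 19.6, 11.1 and 14.9 TPM in TBI libraries on day 1, with a log2 fold change of −0.19. On day 3 it was at 16.8, 17.7 and 11.6 TPM in sham and 24.8, 9.24 and 12.8 TPM in TBI. The TBI libraries of day 3 held both the highest and the lowest value of the gene. On day 7, Ilp3 was at 14.6, 15.5 and 12.2 TPM in sham and 9.59 and 11.8 TPM in TBI. These groups did not overlap, as for 17.5% of all genes on that day and, with TBI lower, for 2.41%. The log2 fold change was −0.37 (SE 0.280, limma, adjusted p = 0.717). Ilp5 was the lowest gene, and its replicates differed by several-fold: on day 1 it had 8.64, 2.56 and 11.2 TPM in sham and 9.79, 7.05 and 7.99 TPM in TBI libraries. Its log2 fold changes of 0.30 on day 1, −0.08 on day 3 and 0.65 on day 7 all had intervals that held 0, the last from −1.01 to 2.32.

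These 3 peptides are neuronal, and their transcripts were found in the pulled-down RNA of every library. Dsk, a peptide gene that the insulin-producing cells also express, was found at 23.6 to 46.0 TPM. Across libraries Ilp3 was at 0.260 to 0.625 TPM for each TPM of Ilp2. Which cells this RNA came from, and whether it was bound to the tagged ribosomes, were not tested.

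ImpL2, the binding protein, had its highest values 1 day after TBI. It lies on 3L, 4224006 to 4236147, minus strand, and shares exon sequence with CG46460 on the same strand, so reads of the 2 could be divided between them. On day 1 it had 90.0, 113 and 104 TPM in sham and 136, 134 and 111 TPM in TBI libraries. The lowest TBI library lay just under the highest sham library. The log2 fold change of 0.31 (SE 0.124) did not pass (limma, adjusted p = 0.302). On day 3 the order was turned: 69.7, 89.7 and 81.7 TPM in sham and 54.4, 74.4 and 63.1 TPM in TBI. In each of the 3 same-numbered pairs the TBI library was lower, with a log2 fold change of −0.33 (SE 0.0964, limma, adjusted p = 0.815). On day 7, ImpL2 was at 84.8, 57.1 and 66.3 TPM in sham and 56.2 and 61.6 TPM in TBI, a log2 fold change of −0.22 with an interval of −0.77 to 0.34.

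The effect of TBI on ImpL2 differed between day 3 and day 1 by −0.64 on the log2 scale (SE 0.153, limma interaction), with an adjusted p of 0.211. Only 0.0161% of 12446 genes were called in this comparison, and no member was among them. The TBI libraries of day 1 had the most ImpL2 for each Ilp6. There, ImpL2 was 1.23, 1.27 and 1.14 times the level of Ilp6, and in the sham libraries of that day 0.574, 0.623 and 0.698 times. In the 11 libraries of days 3 and 7 it was 0.371 to 0.581 times. This ratio was chosen after the values had been seen and was not tested.

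Sdr, the secreted decoy of the insulin receptor, is not one of the 10 genes but belongs with ImpL2 as a second secreted protein that binds insulin-like peptides; in the larva it is made by glia. It went the other way from ImpL2 on day 1, with 17.04, 18.7 and 16.5 TPM in sham and 4.18, 8.22 and 7.58 TPM in TBI libraries. The groups did not overlap, as for 16.1% of all genes on that day and, with TBI lower, for 5.95%. The log2 fold change of −1.31 (SE 0.214) just missed the threshold (limma, adjusted p = 0.103). It passed in 4 of 10 alternatives, over which the adjusted p ranged from 0.0205 (among genes with a mean of at least 1 TPM) to 0.346 (without replicate 2). On day 3 the values were 10.6, 10.7 and 16.0 TPM in sham and 5.83, 11.6 and 7.92 TPM in TBI, and on day 7 they were 15.5, 11.0 and 8.94 TPM in sham and 5.71 and 9.16 TPM in TBI. TBI and sham overlapped on both days. Over the 3 days together Sdr was called lower, by −0.83 (SE 0.190, limma, adjusted p = 0.0724), and the call did not hold without sham replicate 2 of day 3 and TBI replicate 1 of day 7 (−0.85, adjusted p = 0.153) or without some of the single libraries (adjusted p up to 0.160).

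**Figure D2:**
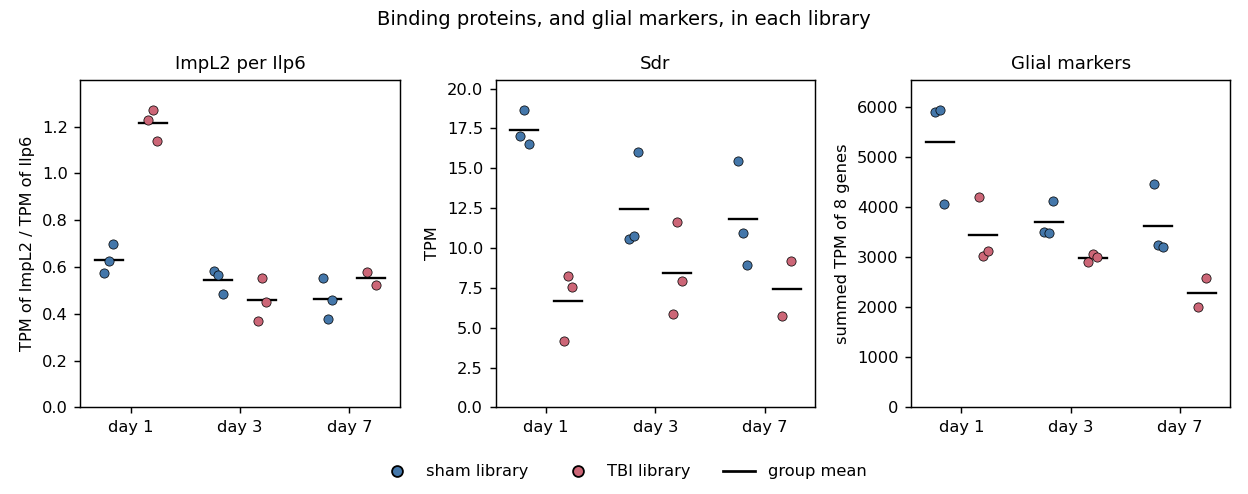
The ratio of ImpL2 to Ilp6 (left, TPM over TPM), Sdr (middle, TPM) and the summed TPM of the 8 glial markers (right) in each sham (blue) and TBI (red) library by day, with group means as lines and all y axes from 0. The 3 TBI libraries of day 1 have ratios of 1.14 to 1.27, above all others, and Sdr levels of 4.18 to 8.22 TPM, below the sham libraries of that day.

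chico and foxo, which carry the signal inside the cell, were lower in every TBI library of day 1 than in the sham library of the same number, but neither was called. chico lies on 2L, 10242512 to 10247078, minus strand, and overlaps the antisense gene asRNA:CR44995. It had 21.8, 20.3 and 14.1 TPM in sham and 20.0, 12.8 and 8.86 TPM in TBI libraries on day 1. Replicate 3 was the lowest in both groups, and the ranges overlapped. It had a log2 fold change of −0.45 (SE 0.159, limma, adjusted p = 0.267). On day 3 chico was at 14.1 to 16.5 TPM in sham and 11.6 to 20.9 TPM in TBI, and on day 7 at 11.5 to 28.4 TPM and 18.1 to 25.2 TPM. The log2 fold changes of 0.06 and 0.29 were well within the spread.

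foxo, on 3R, 14056945 to 14087978, plus strand, had 53.2, 45.7 and 38.1 TPM in sham and 45.9, 30.7 and 28.4 TPM in TBI libraries on day 1. This gave a log2 fold change of −0.39 (SE 0.107, limma, adjusted p = 0.200). Photoreceptor markers were lower on that day too, with a sum of 44387 to 46036 TPM in sham and 25466 to 33461 TPM in TBI libraries; their part in the foxo value was not tested. On day 3, foxo was at 39.0, 22.8 and 38.4 TPM in sham and 48.5, 29.9 and 27.7 TPM in TBI, and on day 7 at 43.7, 35.4 and 31.4 TPM in sham and 53.6 and 30.4 TPM in TBI. Both comparisons overlapped, with log2 fold changes of 0.08 and 0.14. The value of day 7 was −0.16 with upper-quartile scaling, so it has no firm direction.

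Of the other genes of insulin and TOR signalling below the receptor (such as S6k and Myc), 23 were matched, and 21 were tested on day 1 and none was called by limma. Before adjustment, 5 had p under 0.05, of which 4 were lower after TBI and 1 higher, against 18.2% of all genes. The median log2 fold change of the list was −0.08, and that of all genes 0.02. On days 3 and 7, 22 were tested, and none was called or had p under 0.05. Akt was listed at 0 in all 17 libraries and was not tested, and raptor and rictor were at most 2.13e-07 and 0.000126 TPM. Such values may be failed estimates and are not taken to show that these genes are absent. Of the other 20 genes, 18 had higher estimates after TBI on day 7, as had 76.9% of all genes, and the median was 0.31 in these 20 and 0.23 in all genes.

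Thor, the foxo target, lies on 2L, 3478434 to 3479612, plus strand. On day 1 it had 35.9, 31.3 and 27.4 TPM in sham and 39.1, 31.6 and 29.9 TPM in TBI libraries. Each TBI library was slightly above the sham library of the same number, and the log2 fold change of 0.08 had an interval of −0.16 to 0.33. On day 3, Thor was at 44.0, 19.4 and 40.4 TPM in sham and 36.5, 43.8 and 43.3 TPM in TBI. The low sham value belonged to replicate 2, the library with the midgut transcripts, and without that replicate the log2 fold change was −0.08 instead of 0.32. On day 7, it was at 51.6, 33.5 and 51.4 TPM in sham and 51.1 and 55.5 TPM in TBI, a log2 fold change of 0.25 that was −0.05 with upper-quartile scaling. Thor was thus not shown to change after TBI on any of the days.

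tobi was lower 1 day after TBI, by more than any other of the 9 genes. It lies on 3R, 25344761 to 25346921, minus strand, and its exons overlap those of rha on the opposite strand. On day 1 it had 31.2, 10.7 and 22.1 TPM in sham and 14.0, 2.33 and 4.90 TPM in TBI libraries. The ranges overlapped, since TBI replicate 1 lay above sham replicate 2, but each TBI library was lower than the sham library of the same number. With the replicate number in the fit, the log2 fold change was −1.63 (SE 0.226, limma, adjusted p = 0.0795), or 0.324 times the level of sham. The call rests on that block: without it the adjusted p in limma was 0.362. The replicate numbers were not shown to pair the libraries, as same-numbered ones deviated together with r = 0.381, 0.0105 and 0.210 on day 1. In limma the call was also lost without replicate 2 (−1.53, adjusted p = 0.336) and without replicate 3 (−1.46, adjusted p = 0.219). With Ilp6, tobi made 2 of the 9 genes called on day 1, both lower, where 2.86% of 12085 genes were called and 0.670% called lower.

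On day 3 tobi had the opposite direction. It was at 8.40, 7.21 and 6.39 TPM in sham and 10.7, 21.9 and 19.1 TPM in TBI libraries, without overlap, as for 7.49% of genes on that day and, with TBI higher, for 4.35%. The log2 fold change of 1.08 (SE 0.316) had an adjusted p of 0.815 in limma, so it was not called. Without replicate 2, the sham library with the midgut transcripts and its TBI partner, it was 0.88. On day 7 the values were 8.06, 5.28 and 19.9 TPM in sham and 21.1 and 2.99 TPM in TBI, where the TBI libraries held both the highest and the lowest value of that day. With such spread, the log2 fold change of −0.17 had an interval of −2.43 to 2.08. The effects on day 3 and day 1 differed by 2.71 on the log2 scale (SE 0.415, limma interaction), but the adjusted p of 0.149 did not pass.

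Fat body transcripts were lower together with tobi on day 1 and followed it in some libraries of the later days but not in others. The summed level of the matched fat body and yolk markers was 13189 to 22157 TPM in sham and 5491 to 12546 TPM in TBI libraries on day 1, without overlap. On day 3 it was 6224 to 13131 TPM in sham and 6067 to 18024 TPM in TBI and overlapped. TBI replicates 2 and 3, with sums of 18024 and 15386 TPM, had 21.9 and 19.1 TPM of tobi. TBI replicate 1 had more tobi than any sham library of that day at less Yp1 (4108 TPM). On day 7 TBI replicate 1 had 21.1 TPM of tobi at a sum of 7468 TPM, and sham replicate 1 had 8.06 TPM at 6719 TPM. Sham replicate 3 of that day had 19.9 TPM of tobi at a sum of 17273 TPM. Yp2 and the marker to were listed at 0 in most or all libraries. For each 1000 TPM of Yp1, tobi was at 1.95, 1.12 and 1.81 TPM in sham and 1.59, 0.658 and 0.828 TPM in TBI on day 1, where the groups overlapped. On day 3 it was at 0.893, 1.05 and 1.42 TPM in sham and 2.60, 1.68 and 1.70 TPM in TBI, where they did not. On day 7 it was at 2.18, 0.941 and 1.63 TPM in sham and 3.97 and 0.616 TPM in TBI, and the 2 TBI libraries held the highest and the lowest ratio of all 17. The part of fat body RNA in the tobi values was not tested beyond this ratio.

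**Figure D3:**
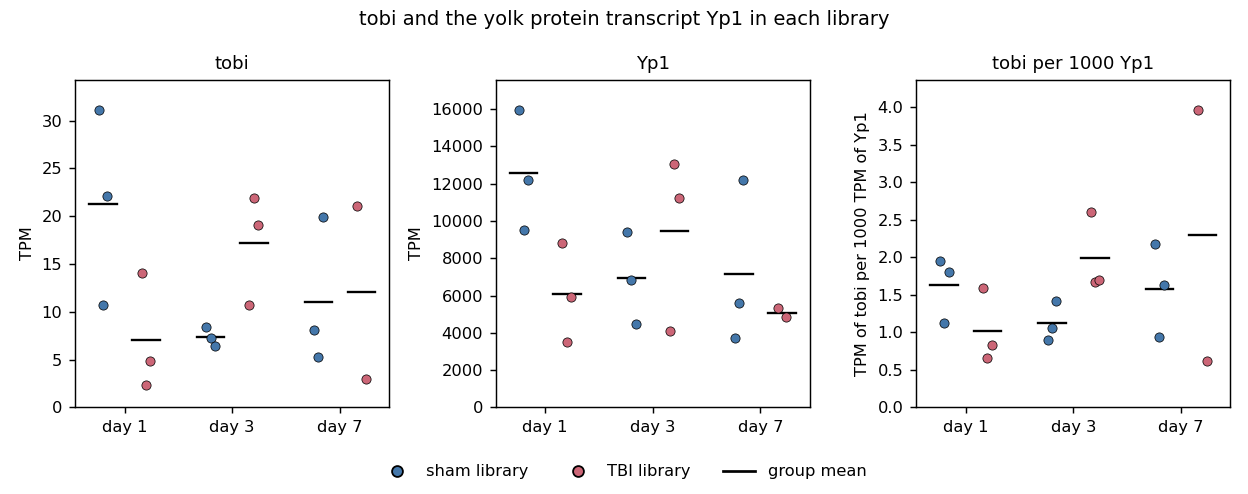
tobi (left, TPM), the yolk protein transcript Yp1 (middle, TPM) and tobi for each 1000 TPM of Yp1 (right) in each sham (blue) and TBI (red) library by day, with group means as lines and y axes from 0. Against Yp1, tobi overlaps between sham and TBI on day 1 (0.658 to 1.95) and is higher in the TBI libraries on day 3 (1.68 to 2.60 against 0.893 to 1.42), and the 2 TBI libraries of day 7 hold both ends (0.616 and 3.97).

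Across all 9 genes, 4 had p under 0.05 on day 1 in limma (Ilp6, chico, foxo and tobi), all lower after TBI, against 8.34% of all genes lower at that p. On day 3, 0 of 9 were called, as was no gene of 11835, and 2 (ImpL2 and tobi) had p under 0.05, against 5.81% of genes. On day 7, 0 of 9 and no gene of 11966 were called, and Ilp6 had p under 0.05, against 4.21%. The share called was 0% on both days. With 2 TBI libraries on day 7, intervals were wide, from −0.88 to −0.09 for Ilp6 and from −1.01 to 2.32 for Ilp5.

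**Figure D4:**
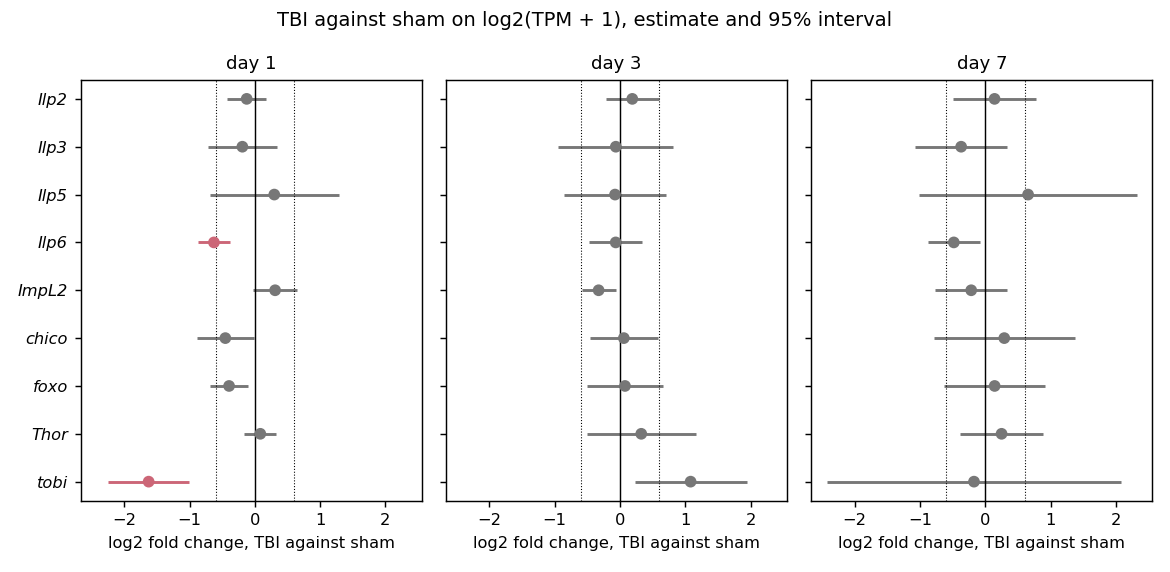
Log2 fold changes of TBI against sham on log2(TPM + 1) (x axis) for the 9 genes (y axis) on days 1, 3 and 7, with limma's 95% intervals as bars and dotted lines at −0.6 and 0.6. The 2 called genes, Ilp6 at −0.63 and tobi at −1.63 on day 1, are red and all others grey.

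Genes outside the cascade that report on nutrients, or that foxo is known to act on, gave 3 calls on day 1 among 20 tested (2 higher and 1 lower), and 11 had p under 0.05 before adjustment, 5 higher and 6 lower. Of all genes on that day, 2.86% were called (2.19% higher and 0.670% lower), and 18.2% had p under 0.05 (9.85% higher and 8.34% lower). Pepck1, a key enzyme of gluconeogenesis, had 68.9, 75.7 and 62.0 TPM in sham and 129, 114 and 94.0 TPM in TBI libraries, a log2 fold change of 0.69 (SE 0.0992, limma, adjusted p = 0.0830). No sham library reached the lowest TBI library, and the groups did not overlap for 16.1% of all genes on that day. CCHa2, a peptide hormone of fat body and gut that acts on the insulin-producing cells, had 137, 115 and 129 TPM in sham and 88.4, 49.2 and 69.9 TPM in TBI libraries. It fell by 0.91 on the log2 scale (SE 0.138, limma, adjusted p = 0.0916). Fat body and yolk markers summed to 13189 to 22157 TPM in sham and 5491 to 12546 TPM in TBI on day 1. Their part in the CCHa2 value was not tested. upd2, a leptin-like cytokine that signals the fed state, had 0.288, 0.143 and 0 TPM in sham and 2.08, 1.57 and 1.26 TPM in TBI libraries, a log2 fold change of 1.20 (SE 0.128, limma, adjusted p = 0.0507). The level was low throughout, and the pseudocount of 1 TPM makes this an understated change.

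Pepck1 and upd2 were not high in the 2 libraries of the later days with midgut transcripts: there, in sham replicate 2 of day 3 and TBI replicate 1 of day 7, Pepck1 was at 66.8 and 37.4 TPM and upd2 at 0 and 0.122 TPM. CCHa2 was at 104 and 77.8 TPM in them, and the other TBI library of day 7 also had 77.8 TPM. All 3 calls were lost without any one replicate of day 1 (adjusted p up to 0.322). On days 3 and 7 no gene of this list was called, and the log2 fold changes of Pepck1 were −0.01 and −0.34.

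Among 15 sugar-cleaving enzymes, which share their chemistry with tobi, 10 had higher and 5 lower estimates after TBI on day 1. Of all genes, 53.3% had higher estimates and 2.86% were called. Mal-A3, a maltase, was called. It was at 0, 0.158 and 0 TPM in sham and 2.85, 2.75 and 1.97 TPM in TBI libraries (log2 fold change 1.74, SE 0.157, limma, adjusted p = 0.0360). It was also at 1.07 TPM in sham replicate 2 of day 3 and at 3.18 TPM in TBI replicate 1 of day 7, the libraries with midgut transcripts, and at most 0.306 TPM in the other libraries of those days. The day 1 call of Mal-A3 was lost in 3 of 10 alternatives (limma, adjusted p up to 0.278). Mal-A1, Mal-A2, Mal-A4, Mal-A6, Mal-A7, Mal-A8, Mal-B1 and Amy-p also had their highest values in libraries with midgut transcripts. Mal-A5, Mal-B2, Amy-d, Amyrel, Treh and GCS2alpha had theirs in other libraries. These genes are named after their values had been seen. The part of midgut transcripts in the enzyme values was not tested. Treh, the trehalase that cleaves the main blood sugar of insects, was chosen after its values had been seen. It had 393, 487 and 344 TPM in sham and 266, 254 and 245 TPM in TBI on day 1 (log2 fold change −0.66, limma, adjusted p = 0.120), and over the 3 days its change was −0.52 (adjusted p = 0.0638), under the limit of 0.6.

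Other insulin-like peptides were near the floor. Ilp1 was at 0 in 15 libraries and Ilp4 in 14, and Ilp7 reached at most 1.54 TPM. Ilp8, a relaxin-like peptide that reports tissue damage in the larva, is named after its values had been seen: it was at 0.467, 12.0 and 8.39 TPM in the TBI libraries of day 1, 11.2 TPM in sham replicate 2 of day 3 and 24.6 TPM in TBI replicate 1 of day 7, and at most 1.04 TPM in all others. The libraries with 8.39 TPM of Ilp8 or more all had midgut transcripts. At 0.467 TPM, Ilp8 was low in TBI replicate 1 of day 1, although this library had midgut transcripts too. The log2 fold change on day 1 was 2.15 (SE 0.680, limma, adjusted p = 0.236).

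**Figure D5:**
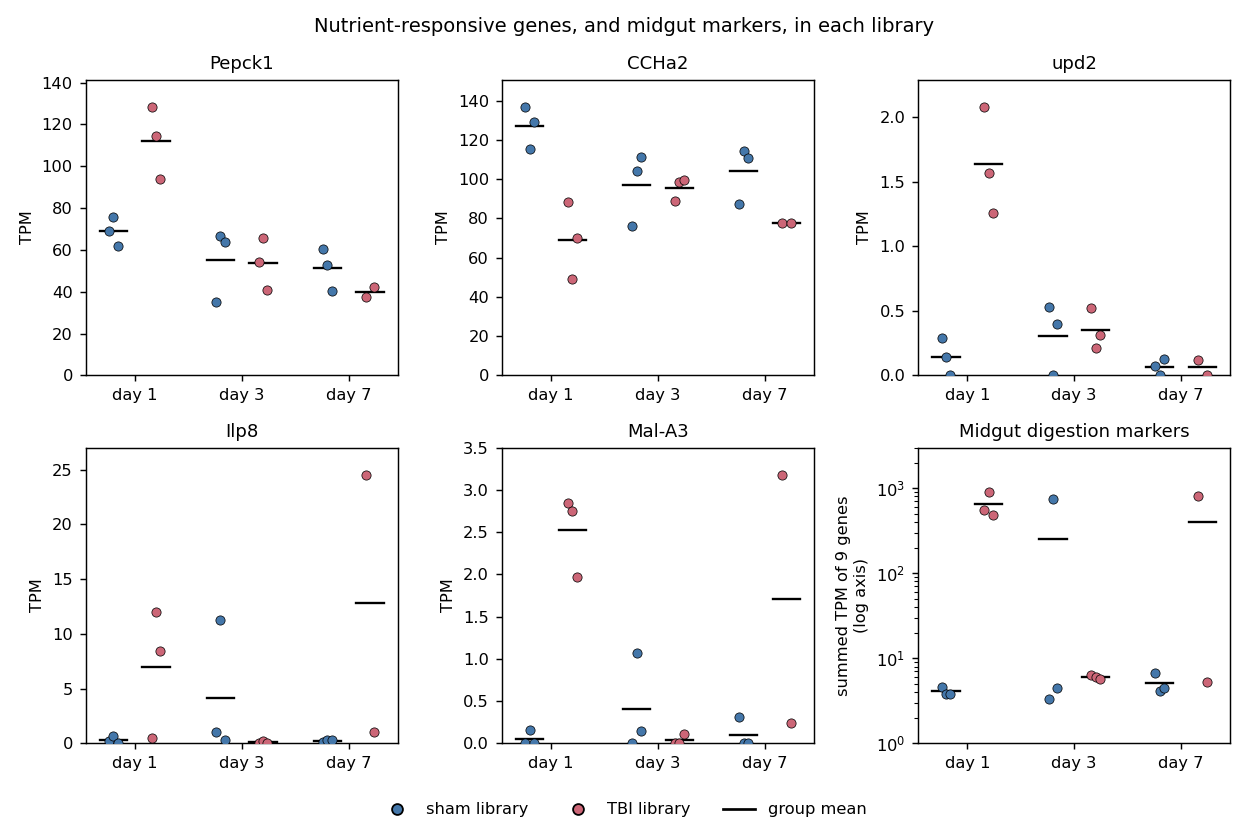
TPM of Pepck1, CCHa2, upd2, Ilp8 and Mal-A3, and the summed TPM of 9 midgut digestive genes (lower right, log axis), in each sham (blue) and TBI (red) library by day, with group means as lines. Ilp8 and Mal-A3 are high in the later libraries with midgut transcripts (11.2 and 24.6 TPM for Ilp8), and Pepck1 (66.8 and 37.4 TPM) and upd2 (0 and 0.122 TPM) are not.

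Between days, most of these genes had lower estimates in the sham libraries of day 3 and of day 7 than in those of day 1. Their median log2 changes were −0.21 and −0.30. Only 1 of the 9 had a higher estimate on each later day, against 43.8% and 41.7% of all genes. No member was called in sham flies on day 3 or day 7 against day 1, where 0.0168% of 11939 genes were called in each. The lowest p on day 3 was that of tobi, with a log2 change of −1.31 (SE 0.488, limma, adjusted p = 0.939) from 21.3 ± 10.2 TPM on day 1 to 7.33 ± 1.01 TPM on day 3 (SD, n = 3). On day 7 it was that of ImpL2, with −0.56 (SE 0.171, limma, adjusted p = 1), from 102 ± 11.4 TPM to 69.4 ± 14.1 TPM. For both genes the sham mean was highest on day 1. Time after the sham treatment, age and day of collection cannot be told apart.

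Over the 17 libraries and 5349 genes that averaged 10 TPM or more, each gene had its own closest companions (Pearson r of log2(TPM + 1), which shares library composition and injury state and is given as a description). ImpL2 was most like GstD3 (0.898), Pepck1 (0.873) and Timp (0.838). Ilp6 was most like CG43324 (0.921), Cyp12a4 (0.871) and Ugt49B1 (0.863), and foxo like AGO1 (0.958), rdgB (0.954) and norpA (0.951), the last 2 known from photoreceptors. For tobi the closest were CG10621 (0.855), Iris (0.834) and dob (0.833), for chico frj (0.967), Syx6 (0.967) and scramb1 (0.961), and for Thor CG13116 (0.706), EMC7 (0.697) and RpL18 (0.688). Ilp2 was most like CG14132 (0.936), osy (0.930) and CG14439 (0.879), and Ilp3 like Cyp4ac1 (0.780), the clock-neuron peptide gene Pdf (0.759) and CG11550 (0.748). Among the genes themselves, chico and foxo (0.747) and Ilp2 and Ilp3 (0.642) were closest, and Ilp6 and ImpL2 had no common course (−0.10). Ilp5 was too low for this comparison.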

How the data were processed

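The authors quantified single-end reads with Kallisto against FlyBase release 6 transcripts, summed them to genes with tximport and deposited TPM. Replicate 3 of TBI on day 7 had been left out by the authors. Groups were taken from the sample labels and days after injury from the methods. Names came from the reference for 13128 identifiers and from the study's tables for 134; 217 had none.

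For each day, sham and TBI libraries were fitted in limma 3.58.1 (R 4.3.3) on log2(TPM + 1), with an expression trend, over all genes above 0 in at least 1 library. P-values were adjusted by Benjamini-Hochberg over all genes. The replicate number was a block on days 1 and 3, after the study's correction for replicates, and not on day 7. A fold change on this scale understates that of low genes. The paper calls the replicates biological, but does not state whether they came from separate cohorts, so p-values measure the spread between these libraries. Intervals are limma's at 95%.

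The members and lists were chosen with earlier results of these data known. From the lists, genes called in any fit are named; others are marked. The alternatives were pseudocount 0.1, a mean of at least 1 TPM, 2 scalings, the block, a joint fit, stricter thresholds (1 and 0.05) and each replicate left out; the common effect without the 2 later libraries with midgut transcripts was added after seeing the data. The fit was also run on simulated data, and no result of that run is used here. Figures were drawn with matplotlib.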

Additional observations from a re-analysis of the deposited data

Results flagged for a closer look

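ImpL2 and tobi had opposite directions on day 1 and day 3 in all 3 same-numbered pairs. For ImpL2 the effect of TBI on day 3 less that on day 1 was −0.64 on the log2 scale (limma interaction, adjusted p = 0.211), with TBI higher in 3 of 3 pairs on day 1 and lower in 3 of 3 on day 3. For tobi it was 2.71 (adjusted p = 0.149), with TBI lower in 3 of 3 pairs on day 1 and higher in 3 of 3 on day 3. Ilp8 was higher in 3 of 3 pairs on day 1 and lower in 3 of 3 on day 3, a difference of −3.71 (limma interaction, adjusted p = 0.267). Many of these Ilp8 values were near the floor. In replicate 1 of day 1 they were 0.227 TPM in sham and 0.467 TPM in TBI. On day 3 they were 0.995, 11.2 and 0.310 TPM in sham and 0, 0.248 and 0 TPM in TBI. The high values, 12.0 and 8.39 TPM in TBI on day 1 and 11.2 TPM in sham on day 3, were in libraries with midgut transcripts. Pepck1 was higher in 3 of 3 pairs on day 1 and lower in 2 of 2 on day 7, a difference of −1.03 (adjusted p = 0.811). None of the 4 differences passed the adjusted threshold.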

How the results depend on the processing

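Of 552 values of single genes under alternatives, 477 kept their direction and their side of the thresholds, 42 lost a call, 10 gained one and 23 changed direction. The calls gained were those of Sdr on day 1 with pseudocount 0.1, a mean of at least 1 TPM, no replicate block and the joint fit (adjusted p = 0.0948, 0.0205, 0.0769 and 0.0516 in limma), Treh on day 1 under the same TPM minimum (0.0448) and for the common effect with both scalings (−0.61 and −0.63), Ilp8 on day 1 without replicate 1 (3.10), Ilp6 on day 7 without TBI replicate 2 (−0.62), and Mal-A3 for day 3 against day 1 with no replicate block (−2.10). Where no cause is given, it was not tested. At the stricter thresholds 132 genes and 0 members were called on day 1 (346 and 2 as reported) and 10 genes for the common effect (86). With a mean of at least 1 TPM, which tests fewer genes, 684 were called on day 1, 3 on day 3, 2 on day 7 and 0 in both sham comparisons (2 and 2). On day 1 the members called were 1 with median-of-ratios scaling (tobi), 1 in the joint fit of 17 libraries (Ilp6) and 1 with no replicate block (Ilp6). The joint fit called 1 gene on day 3 and 8 on day 7. Without sham replicate 2 of day 3 and TBI replicate 1 of day 7, 41 genes were called for the common effect.

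Same-numbered libraries deviated together with r = 0.381, 0.0105 and 0.210 on day 1, 0.455, 0.141 and −0.0261 on day 3, and 0.216 and 0.124 on day 7, so the numbers were not shown to pair the libraries. With no replicate block 1 gene was called on day 3 and 60 in the comparison of day 3 with day 1 (2). With the replicate block, 50 genes were called for the common effect, 0 in the comparison of day 7 with day 1 (5), 1 and 0 in sham flies on days 3 and 7, and tobi on day 7 was at 0.32.

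On day 7, median-of-ratios scaling turned Ilp2 to −0.16, chico to −0.0021, foxo to −0.16 and Thor to −0.055, and upper-quartile scaling turned them to −0.16, −0.0022, −0.16 and −0.055. These scalings remove the shift of all genes on that day.

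With each replicate left out in turn, 10 to 214 genes and 0 to 1 members were called on day 1. On day 7 it was 0 to 1375 genes and 0 to 1 members (Ilp6 without TBI replicate 2, where the lone TBI library is assumed to vary like sham), with 85 genes without TBI replicate 1. For the common effect 31 to 134 genes were called, and in sham flies 0 to 5 on day 3 and 0 to 9 on day 7. The log2 fold changes that changed direction ranged on day 1 from −0.31 to 0.038 for Ilp3 and −0.14 to 0.67 for Ilp5. On day 3 they ranged from −0.36 to 0.34 for Ilp3, −0.24 to 0.19 for Ilp5, −0.25 to 0.029 for Ilp6, −0.077 to 0.21 for chico, −0.075 to 0.34 for foxo and −0.082 to 0.62 for Thor. On day 7 they ranged from −0.027 to 0.28 for Ilp2, −0.26 to 0.54 for foxo and −1.41 to 1.06 for tobi.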
